A study of Homo sapiens with 9 samples.

Results

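The genes described here are 43 genes of protein folding: chaperones, disulfide enzymes, quality control and trafficking factors of the endoplasmic reticulum (ER), the sensors and transcription factors of ER stress, and the heat shock proteins of the cytosol and mitochondria. They were chosen by symbol from a list of names, with no cut-off on their levels, and all 43 were found among the 60603 genes of the count table. All 43 passed the filter on low counts, which kept 16093 genes. They were measured by bulk RNA-seq in TC32, a cell line from Ewing sarcoma with the EWS::FLI1 fusion. There were 3 groups of 3 libraries, each labelled as a biological replicate and all labelled as 1 batch. The siEF cells received an siRNA placed over the breakpoint of EWS::FLI1, the siNEG cells received a nonspecific siRNA, and the Media cells received neither. All were wild type by label, grown with serum and L-glutamine, and collected at 30 h. The groups are therefore 1 cell line at 1 time with 1 siRNA against the fusion.

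Proteins that enter the secretory pathway fold in the ER with the help of HSP70 and HSP90 family chaperones, of lectin chaperones that hold glycoproteins, and of enzymes that form and shuffle disulfide bonds. When unfolded protein accumulates there, the sensors ATF6, ERN1 (IRE1) and EIF2AK3 (PERK) start the unfolded protein response, in which cleaved ATF6 and spliced XBP1 raise transcription of ER chaperone genes. The cytosol has its own HSP70 and HSP90 system, whose stress-inducible genes are driven by heat shock factor HSF1 through heat shock elements, and mitochondria fold imported proteins in the chaperonin made of HSPD1 (HSP60) and HSPE1 (HSP10).

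The libraries held between 20727706 and 33134581 expected counts. The 43 genes together took 1.53 to 1.54% of all counts in siEF, 2.30 to 2.33% in siNEG and 2.36 to 2.38% in Media, a share that was lower in all siEF libraries. The top 10 genes by count made up 12.3 to 12.9% of a siEF library and 5.78 to 6.61% of the other 6 libraries. The targeted gene was checked on the row of FLI1, which cannot part the fusion from other FLI1 transcripts: FLI1 stood at 38.4, 35.5 and 39.3 CPM in the siEF libraries, 48.6, 48.5 and 47.99 CPM in the siNEG libraries and 59.5, 56.2 and 57.9 CPM in the Media libraries (siEF against siNEG, log2 fold change -0.35, SE 0.0566, adjusted P = 2.88e-05). The siEF libraries thus held 78.2% of the siNEG level of FLI1. The paper states that these cells make no FLI1 of their own, and that qPCR showed the fusion to be silenced. The qPCR change it gives is several cycles in size, larger than the change in the FLI1 row. How the FLI1 row relates to that qPCR change was not tested. The Ewing sarcoma markers CD99, NKX2-2, NR0B1 and STEAP1 were present in every library. Their means were 189, 23.04, 17.6 and 8.62 CPM in siEF and 161, 62.5, 137 and 41.8 CPM in siNEG. NR0B1, which the paper treats as induced by the fusion, stood in siEF at 12.8% of its siNEG level (log2 fold change -2.97, SE 0.0787, adjusted P = 7e-15). Of 5 markers of other cell types, PTPRC (leukocytes) and ALB (hepatocytes) were at or near 0, and the sum of PTPRC, ALB, PECAM1 and EPCAM was 1.55 to 2.45 CPM in siEF, 3.46 to 4.36 CPM in siNEG and 4.44 to 5.59 CPM in Media. The fifth, the collagen gene COL1A1, stood at 330.1, 340.2 and 352 CPM in siEF against 16.8, 13.97 and 14.9 CPM in siNEG. The part of these differences in the results below was not tested. In bulk RNA, fewer cells of a kind and less RNA per cell cannot be told apart, and CPM is a share of a library's counts rather than an amount per cell.

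The first comparison, siEF against siNEG, addresses which of the 43 genes differ in level once the fusion is silenced. Below, a gene is lower or higher where the adjusted P of edgeR's quasi-likelihood test was under 0.01 over all 16093 genes tested, and called where the log2 fold change also lay beyond 1 in either direction, the cut-offs of the study. Differences on the log2 scale are siEF minus siNEG unless another pair is named. Of the 43 genes, 26 were lower and 8 higher in siEF, beside 31.7% and 33.6% of all genes tested. Called were 9 lower (DNAJB11, SDF2L1, MANF, HSPA1A, HSPA1B, HSP90AA1, HSPH1, HSPB8 and HSPE1) and 5 higher (HERPUD1, CREB3L1, CREB3L2, KDELR3 and CRYAB), beside 11.7% and 17.1% of all genes. By either rule the lower genes were a larger share of the 43 than of all genes tested, and the higher genes a smaller share. The 43 genes were listed with earlier results of these data known, so these shares describe the list. The siEF and siNEG libraries did not overlap for 29 genes that were lower and 9 that were higher in siEF, beside 37.1% and 39.8% of all genes. The median log2 fold change of the 43 genes was -0.32, beside 0.05 for all genes tested.

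**Figure D1:**
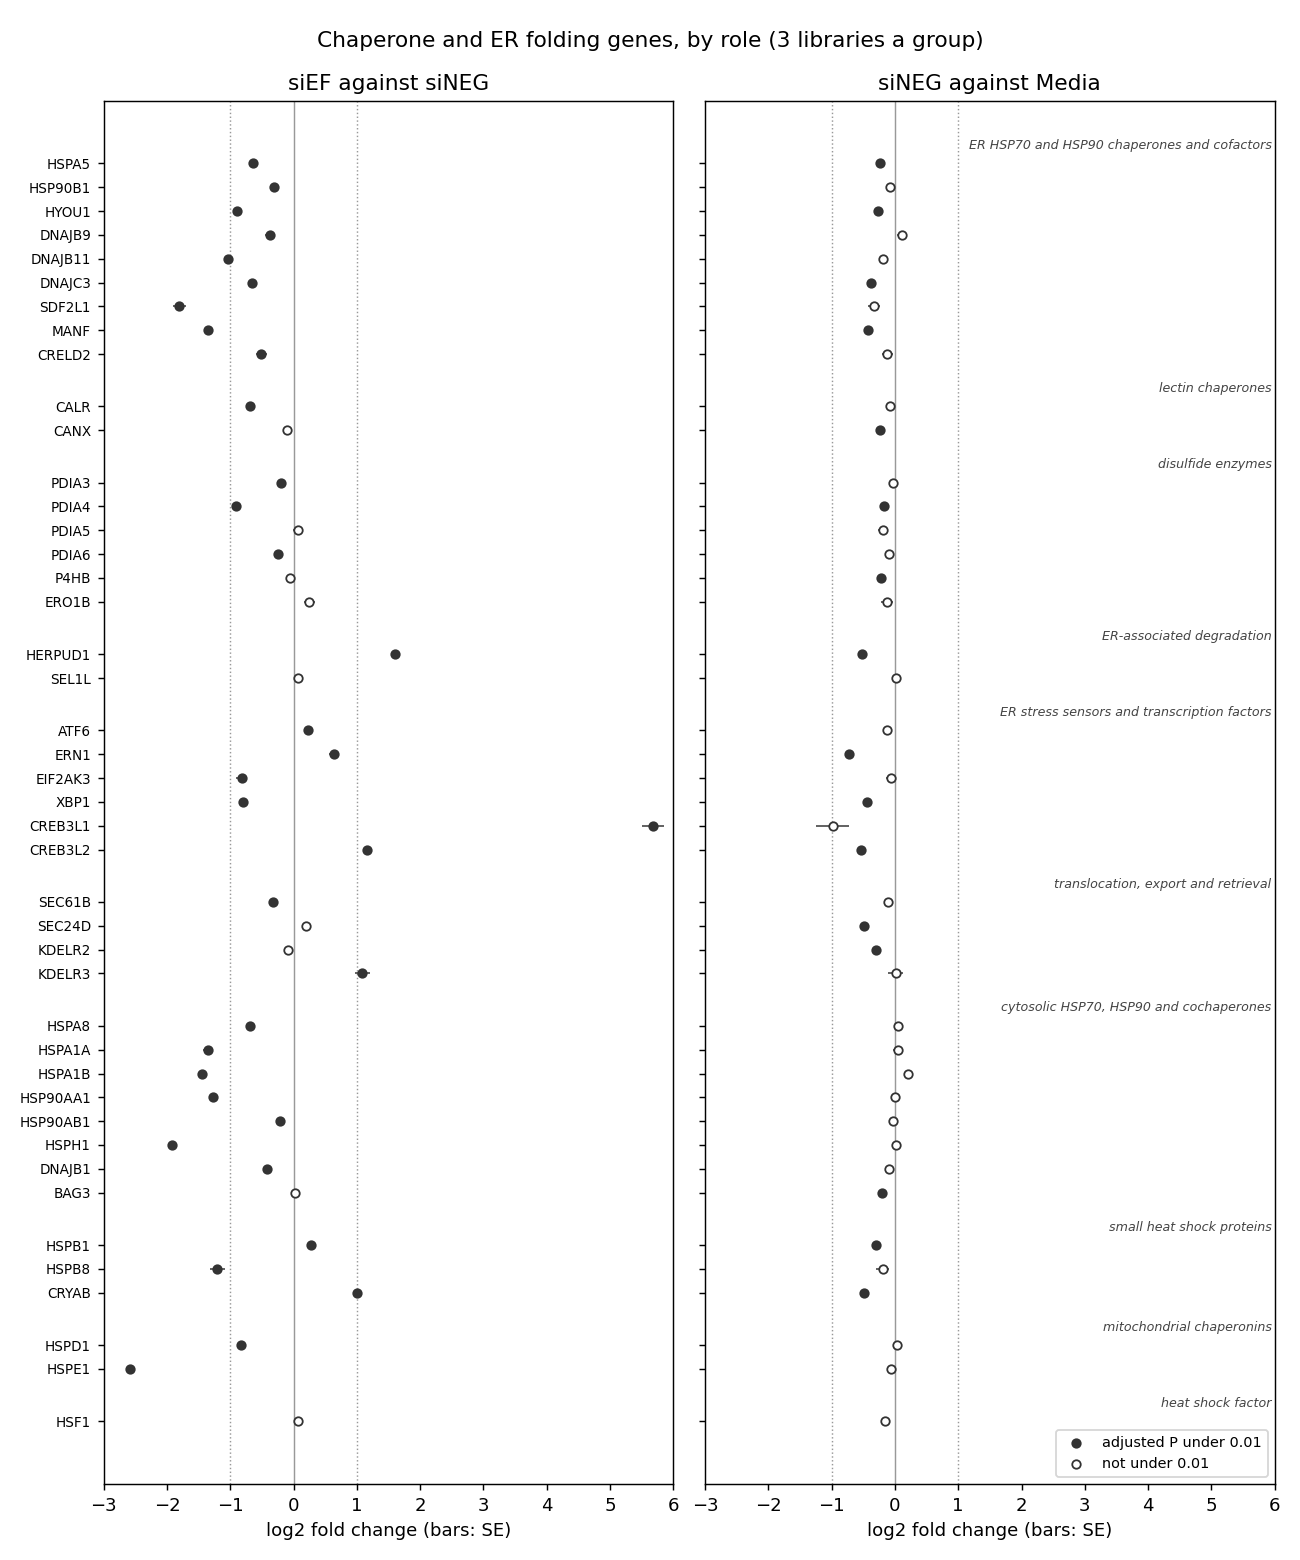
Log2 fold change of each of the 43 genes, grouped by role, in siEF against siNEG (left) and siNEG against Media (right). Points are fitted values, bars are SE, filled points have an adjusted P under 0.01, and dotted lines mark the cut-offs at -1 and 1; on the left, all 9 ER HSP70 and HSP90 genes lie below 0 and CREB3L1 stands alone at 5.68.

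All 9 genes of the ER HSP70 and HSP90 system were lower in siEF than in siNEG, beside 31.7% of all genes tested. Of the 9, 3 were past the fold cut-off, beside 11.7% of all genes, and the median log2 fold change was -0.66. HSPA5 (BiP), the central HSP70 chaperone of the ER, was at 482, 491 and 488 CPM in the siEF libraries, 741, 773 and 772 CPM in the siNEG libraries and 902, 903 and 880.5 CPM in the Media libraries. The 3 groups did not overlap, and siEF was lowest. HSPA5 differed by -0.65 on the log2 scale (SE 0.0396, adjusted P = 2.32e-10). HSP90B1 (GRP94), the HSP90 of the ER and the most abundant of the 9 per kilobase of transcript, was at 1013, 994 and 1025 CPM in the siEF libraries, 1244, 1269 and 1228 CPM in the siNEG libraries and 1320.1, 1301 and 1321 CPM in the Media libraries. HSP90B1 differed by -0.30 on the log2 scale (SE 0.0385, adjusted P = 2.16e-06). Of the cofactors, SDF2L1, MANF, DNAJB11, HYOU1 and, by a small margin, DNAJC3 had larger fitted decreases than HSPA5 itself, differences between genes that were not tested. SDF2L1, a partner of the cochaperone DNAJB11, was at 3.97, 4.898 and 3.77 CPM in the siEF libraries, 13.6, 14.8 and 15.2 CPM in the siNEG libraries and 18.9, 18.9 and 17.04 CPM in the Media libraries, so that siEF held 28.6% of the siNEG level. SDF2L1 differed by -1.80 on the log2 scale (SE 0.106, adjusted P = 1.45e-10). MANF, a soluble HSPA5 cofactor that can be secreted, was at 24.1, 23.8 and 24.95 CPM in the siEF libraries, 63.2, 60.8 and 62.96 CPM in the siNEG libraries and 89.5, 80.2 and 82.4 CPM in the Media libraries. MANF differed by -1.36 on the log2 scale (SE 0.0593, adjusted P = 3.06e-12). DNAJB11 (ERdj3) was at 44.01, 41.2 and 45.8 CPM in the siEF libraries, 94.6, 87.7 and 87.5 CPM in the siNEG libraries and 102, 96.9 and 107 CPM in the Media libraries. DNAJB11 differed by -1.04 on the log2 scale (SE 0.0585, adjusted P = 7.86e-11). Each of these 3 genes separated all siEF from all siNEG libraries. DNAJB11 lies close to the cut-off: its log2 fold change was -0.95 under upper quartile scaling, and its adjusted P for a change beyond the cut-off was 0.368. HYOU1, the nucleotide exchange factor of HSPA5, differed by -0.89 on the log2 scale (SE 0.0450, adjusted P = 1.86e-11). The cochaperones DNAJC3 and DNAJB9 had log2 fold changes of -0.66 (SE 0.0656, adjusted P = 1.14e-07) and -0.37 (SE 0.0835, adjusted P = 0.000801), and CRELD2, a secreted ER stress protein, had -0.51 (SE 0.0902, adjusted P = 8.48e-05).

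The promoters of HSPA5, SDF2L1 and HYOU1, which fell, and of HERPUD1, which rose (below), are shown because all hold exact matches to the elements through which ATF6 and XBP1 are known to act. Each window runs from 250 bases before to 50 bases after the start of the gene in RefSeq on GRCh38.p14, is written 5′ to 3′ on the strand of the gene, and has the match in capitals. HSPA5 (chr9:125241294-125241593, minus strand) holds an ER stress element (ERSE), which is CCAAT followed, after any 9 bases, by CCACG. SDF2L1 (chr22:21642052-21642351, plus strand), HYOU1 (chr11:119057156-119057455, minus strand) and HERPUD1 (chr16:56931892-56932191, plus strand) hold ERSE-II, which is ATTGG, any base, then CCACG, here in SDF2L1 and HYOU1 on the opposite strand. HYOU1 holds 2 copies, the first of which overlaps a match to TGACGTGG, the core of the unfolded protein response element.
HSPA5: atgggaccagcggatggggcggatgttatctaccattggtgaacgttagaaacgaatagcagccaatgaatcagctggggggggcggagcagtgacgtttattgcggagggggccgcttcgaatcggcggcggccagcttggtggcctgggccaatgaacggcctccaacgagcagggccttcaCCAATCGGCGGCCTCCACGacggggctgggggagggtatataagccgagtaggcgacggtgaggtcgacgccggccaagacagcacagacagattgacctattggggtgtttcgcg
SDF2L1: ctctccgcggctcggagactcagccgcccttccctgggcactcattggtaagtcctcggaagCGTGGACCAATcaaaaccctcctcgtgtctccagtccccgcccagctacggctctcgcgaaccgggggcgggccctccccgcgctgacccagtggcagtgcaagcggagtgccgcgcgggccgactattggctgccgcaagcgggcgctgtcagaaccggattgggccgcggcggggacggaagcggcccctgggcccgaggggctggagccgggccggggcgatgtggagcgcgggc
HYOU1: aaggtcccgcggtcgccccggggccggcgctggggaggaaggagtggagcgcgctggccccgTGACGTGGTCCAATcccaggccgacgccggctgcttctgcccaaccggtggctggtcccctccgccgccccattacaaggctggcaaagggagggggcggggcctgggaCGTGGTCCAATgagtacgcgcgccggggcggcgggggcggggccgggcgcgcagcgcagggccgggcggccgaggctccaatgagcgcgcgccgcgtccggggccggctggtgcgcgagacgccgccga
HERPUD1: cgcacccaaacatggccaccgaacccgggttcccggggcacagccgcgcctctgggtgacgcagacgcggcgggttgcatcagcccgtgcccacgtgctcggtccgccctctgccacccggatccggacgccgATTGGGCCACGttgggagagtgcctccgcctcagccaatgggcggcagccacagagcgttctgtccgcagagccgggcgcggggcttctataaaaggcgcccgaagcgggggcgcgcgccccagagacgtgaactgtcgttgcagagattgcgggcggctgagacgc

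Of the 43 genes, 36 had a RefSeq promoter window within 200 bases of the start of their canonical transcript, as did 10359 of all genes tested. The 7 without one were CREB3L1, CRYAB, HSF1, HSPH1, KDELR2, PDIA3 and SEC24D. Searched on both strands, ERSE was found in 8 of the 36 (22.2%, beside 0.164% of all windows), namely CALR, CANX, CRELD2, ERO1B, HSP90B1, HSPA5, PDIA6 and XBP1. ERSE-II was found in 3 (8.33%, beside 0.116%), the unfolded protein response core in HYOU1 and KDELR3 (5.56%, beside 0.946%), and GGAAGGAA, a paired form of the GGAA motif that EWS::FLI1 binds, in 0 (beside 3.25%). Many of these genes are textbook targets of the unfolded protein response, so that the share with such elements is a description of the list. The 11 genes with ERSE or ERSE-II comprised 8 that were lower in siEF than in siNEG, 1 that was higher (HERPUD1) and 2 that were neither (CANX and ERO1B), with a median log2 fold change of -0.51. Beyond the 43, 18 tested genes held either element, of which 10 were lower, 6 higher and 2 neither, with a median of -0.45, beside 0.05 for all genes tested. Genes with the unfolded protein response core leaned the other way. HYOU1 was lower and KDELR3 higher, and of 96 other tested genes with the core, 30 were lower, 47 higher and 19 neither. The median log2 fold change of those 96 genes was 0.20. Over all genes tested, 31.7% were lower and 33.6% higher.

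The lectin chaperones and disulfide enzymes held genes that fell and genes that did not pass the test. Calreticulin (CALR), the soluble lectin chaperone, was at 765, 734 and 765 CPM in the siEF libraries, 1223, 1211 and 1201 CPM in the siNEG libraries and 1368, 1226 and 1254 CPM in the Media libraries, and siEF was lowest without overlap. CALR differed by -0.68 on the log2 scale (SE 0.0461, adjusted P = 8.17e-10). Its membrane-bound counterpart calnexin (CANX) was at 1276, 1224 and 1335 CPM in the siEF libraries, 1376, 1392 and 1344 CPM in the siNEG libraries and 1541, 1624 and 1686 CPM in the Media libraries, a difference between siEF and siNEG that did not pass. The fitted value of CANX was -0.10 on the log2 scale (SE 0.0459, adjusted P = 0.0594). Among the 6 disulfide enzymes, 3 were lower and 0 higher, beside 31.7% and 33.6% of all genes tested. PDIA4 (ERp72) was at 178, 173 and 173 CPM in the siEF libraries, 330.0, 331 and 318 CPM in the siNEG libraries and 384, 361 and 364 CPM in the Media libraries. PDIA4 differed by -0.90 on the log2 scale (SE 0.0414, adjusted P = 5.82e-12), and its 3 groups did not overlap. PDIA6 and PDIA3 (ERp57), the partner of the lectin chaperones, showed smaller decreases of -0.25 (adjusted P = 3.49e-05) and -0.20 (adjusted P = 0.000272) on the log2 scale. P4HB, the founding protein disulfide isomerase and a subunit of the collagen prolyl hydroxylase, was at 583, 594 and 581 CPM in the siEF libraries, 594, 616 and 610.3 CPM in the siNEG libraries and 767, 699 and 661 CPM in the Media libraries, with the Media libraries highest and no difference past the threshold between siEF and siNEG. The fitted value of P4HB was -0.05 on the log2 scale (SE 0.0499, adjusted P = 0.37). The remaining values were 0.08 for PDIA5 (adjusted P = 0.397) and 0.25 for ERO1B, an oxidase that recharges the isomerases (adjusted P = 0.0213). Without the strand of the counting stated, reads of CALR, P4HB, PDIA3, PDIA6, HYOU1, ERN1, EIF2AK3, HSF1 and KDELR3 cannot be told apart from those of annotated opposite-strand genes that overlap their exons. DNAJB11, HSP90B1 and HSPA1B share exonic sequence with another annotated gene on the same strand, so that their reads may be divided between rows.

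Against this pattern, HERPUD1, a membrane protein of ER-associated degradation, rose. It was at 90.4, 91.5 and 88.1 CPM in the siEF libraries, 31.1, 28.1 and 30.2 CPM in the siNEG libraries and 41.7, 42.7 and 43.5 CPM in the Media libraries. The siEF libraries held about 302% of the siNEG level, and the 3 groups did not overlap. HERPUD1 differed by 1.60 on the log2 scale (SE 0.0557, adjusted P = 1.86e-13). Its ERSE-II, in capitals in the HERPUD1 promoter above, has the same letters as the element of HYOU1 and SDF2L1, both of which fell, apart from the free base. SEL1L, the adaptor of the HRD1 ubiquitin ligase in the same pathway, was at 80.9, 71.1 and 76.9 CPM in the siEF libraries, 68.1, 76.8 and 72.4 CPM in the siNEG libraries and 70.6, 69.6 and 74.1 CPM in the Media libraries, with overlapping groups. The fitted value of SEL1L was 0.08 on the log2 scale (SE 0.0600, adjusted P = 0.26).

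The sensors and transcription factors of ER stress changed in both directions. In siEF against siNEG, 2 of 6 were lower and 4 higher, beside 31.7% and 33.6% of all genes tested. XBP1, the transcription factor made active by ERN1, was at 29.6, 27.4 and 32.4 CPM in the siEF libraries, 52.6, 53.2 and 49.7 CPM in the siNEG libraries and 73.3, 68.6 and 69.2 CPM in the Media libraries. XBP1 differed by -0.79 on the log2 scale (SE 0.0653, adjusted P = 1.05e-08), and its 3 groups did not overlap. Gene counts do not part its spliced from its unspliced form. EIF2AK3 (PERK), the kinase that slows translation, was at 12.5, 14.2 and 14.02 CPM in the siEF libraries, 23.2, 24.8 and 23.8 CPM in the siNEG libraries and 22.7, 27.7 and 24.9 CPM in the Media libraries. EIF2AK3 differed by -0.82 on the log2 scale (SE 0.0835, adjusted P = 1.58e-07), with siEF below both controls and the controls overlapping. ERN1, the sensor that splices XBP1, was at 22.4, 22.8 and 23.1 CPM in the siEF libraries, 15.3, 13.998 and 14.7 CPM in the siNEG libraries and 22.7, 24.7 and 25.3 CPM in the Media libraries. It was higher in siEF than in siNEG (log2 fold change 0.64, SE 0.0697, adjusted P = 3.8e-07), yet the siEF and Media libraries overlapped (log2 fold change -0.09, SE 0.0673, adjusted P = 0.253). ATF6, the sensor that is cleaved in the Golgi, was at 100.2, 95.3 and 102 CPM in the siEF libraries, 84.2, 86.02 and 83.02 CPM in the siNEG libraries and 87.3, 90.6 and 97.4 CPM in the Media libraries. It was higher in siEF than in siNEG without overlap, with 0.23 against siNEG (adjusted P = 0.000657) and 0.11 against Media (adjusted P = 0.0566).

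CREB3L1 and CREB3L2, membrane-bound transcription factors that are cleaved in the Golgi and are known for secretory and collagen genes, had the largest increases of the 6. CREB3L1 was at 27.9, 25.7 and 28.04 CPM in the siEF libraries, 0.758, 0.560 and 0.256 CPM in the siNEG libraries and 1.14, 0.984 and 1.01 CPM in the Media libraries, from 8 to 24 counts per library in siNEG to at least 524 in siEF. CREB3L1 differed by 5.68 on the log2 scale (SE 0.175, adjusted P = 4.12e-14). Its gene lies at chr11:46277662-46321409, plus strand. CREB3L2 was at 97.2, 95.6 and 103 CPM in the siEF libraries, 46.1, 43.6 and 42.9 CPM in the siNEG libraries and 59.8, 65.5 and 66.3 CPM in the Media libraries. CREB3L2 differed by 1.16 on the log2 scale (SE 0.0573, adjusted P = 1.46e-11). Neither overlapped between siEF and any control library. For each 100 counts of CREB3L2 there were 26.8 to 28.7 counts of CREB3L1 in siEF and 0.598 to 1.65 in siNEG.

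Among the translocation, export and retrieval genes, 1 of 4 was lower and 1 higher, beside 31.7% and 33.6% of all genes tested. SEC61B, a subunit of the translocation channel and the most abundant of the 4 per kilobase, was at 63.9, 62.4 and 56.1 CPM in the siEF libraries, 74.2, 79.7 and 74.1 CPM in the siNEG libraries and 88.3, 81.5 and 76.1 CPM in the Media libraries. SEC61B differed by -0.32 on the log2 scale (SE 0.0652, adjusted P = 0.0003). KDELR3, one of the receptors that return ER proteins from the Golgi, was at 10.8, 13.2 and 13.4 CPM in the siEF libraries, 5.75, 5.57 and 6.25 CPM in the siNEG libraries and 5.39, 6.41 and 5.59 CPM in the Media libraries. KDELR3 differed by 1.09 on the log2 scale (SE 0.115, adjusted P = 2.58e-07). Every siEF library lay above every control library, and the controls overlapped. KDELR3 shares exonic sequence with DDX17 on the opposite strand. KDELR2, a receptor of the same family, was at 209, 211 and 216 CPM in the siEF libraries, 223, 231 and 225 CPM in the siNEG libraries and 272, 287 and 273 CPM in the Media libraries, so that siEF lay -0.09 from siNEG on the log2 scale (adjusted P = 0.0439). SEC24D, a cargo adaptor of the vesicles that leave the ER, had 0.20 (adjusted P = 0.0189).

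In the cytosol, 7 of 8 HSP70, HSP90 and cochaperone genes were lower in siEF than in siNEG, beside 31.7% of all genes tested. Of the 8, 4 were called lower, beside 11.7% of all genes, and the median log2 fold change was -0.98. The constitutive HSPA8 (HSC70), with 1589 CPM per kilobase in siNEG the most abundant of the 43 genes by that measure, was at 2230.3, 2216 and 2235 CPM in the siEF libraries, 3772, 3514 and 3505 CPM in the siNEG libraries and 3433, 3433 and 3594 CPM in the Media libraries. HSPA8 differed by -0.69 on the log2 scale (SE 0.0411, adjusted P = 1.6e-10), with siEF below both controls and the controls overlapping. The inducible genes HSPA1A and HSPA1B (chr6:31815543-31817946, plus strand, and chr6:31827738-31830254, plus strand) are nearly identical, and the division of reads between them is uncertain. HSPA1A was at 26.7, 28.4 and 25.6 CPM in the siEF libraries, 60.9, 69.2 and 76.1 CPM in the siNEG libraries and 66.7, 65.2 and 68.1 CPM in the Media libraries. HSPA1A differed by -1.36 on the log2 scale (SE 0.0750, adjusted P = 6.18e-11). HSPA1B was at 20.3, 20.2 and 21.04 CPM in the siEF libraries, 52.4, 57.3 and 58.3 CPM in the siNEG libraries and 45.3, 50.4 and 50.3 CPM in the Media libraries. HSPA1B differed by -1.45 on the log2 scale (SE 0.0666, adjusted P = 5.88e-12). Summed into 1 row, they differed by -1.40 on the log2 scale (SE 0.0600, adjusted P = 2.44e-12). In each row siEF was lowest without overlap.

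The 2 cytosolic HSP90 genes parted. HSP90AA1, the stress-inducible form, was at 1339, 1360.1 and 1412 CPM in the siEF libraries, 3337, 3355 and 3259.9 CPM in the siNEG libraries and 3209.7, 3355 and 3391 CPM in the Media libraries, so that siEF held 41.3% of the siNEG level. HSP90AA1 differed by -1.28 on the log2 scale (SE 0.0405, adjusted P = 5.95e-14). HSP90AB1, the constitutive form, was at 3273, 3278 and 3321 CPM in the siEF libraries, 3812, 3836 and 3779 CPM in the siNEG libraries and 3977, 3906 and 3812 CPM in the Media libraries, with siEF at 86.4% of siNEG. HSP90AB1 differed by -0.21 on the log2 scale (SE 0.0362, adjusted P = 6.11e-05). Within each library, free of scaling between libraries, there were 40.9 to 42.5 counts of HSP90AA1 for each 100 of HSP90AB1 in siEF, 86.3 to 87.5 in siNEG and 80.7 to 88.96 in Media. HSPH1 (HSP110), the nucleotide exchange factor of cytosolic HSP70, had the largest fitted decrease of these 8 genes. It was at 109, 119 and 116 CPM in the siEF libraries, 426, 440.0 and 437 CPM in the siNEG libraries and 411, 433 and 439.6 CPM in the Media libraries, and the siEF libraries stood far below the other 6. HSPH1 differed by -1.92 on the log2 scale (SE 0.0466, adjusted P = 2.6e-15). DNAJB1 (HSP40), which delivers clients to HSP70, had -0.42 (SE 0.0403, adjusted P = 7.18e-08). BAG3, the cochaperone of the inducible stress response, was at 73.9, 67.98 and 71.9 CPM in the siEF libraries, 69.7, 70.4 and 70.9 CPM in the siNEG libraries and 81.9, 81.03 and 80.3 CPM in the Media libraries, with overlapping siEF and siNEG libraries. The fitted value of BAG3 was 0.02 on the log2 scale (SE 0.0487, adjusted P = 0.717).

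**Figure D2:**
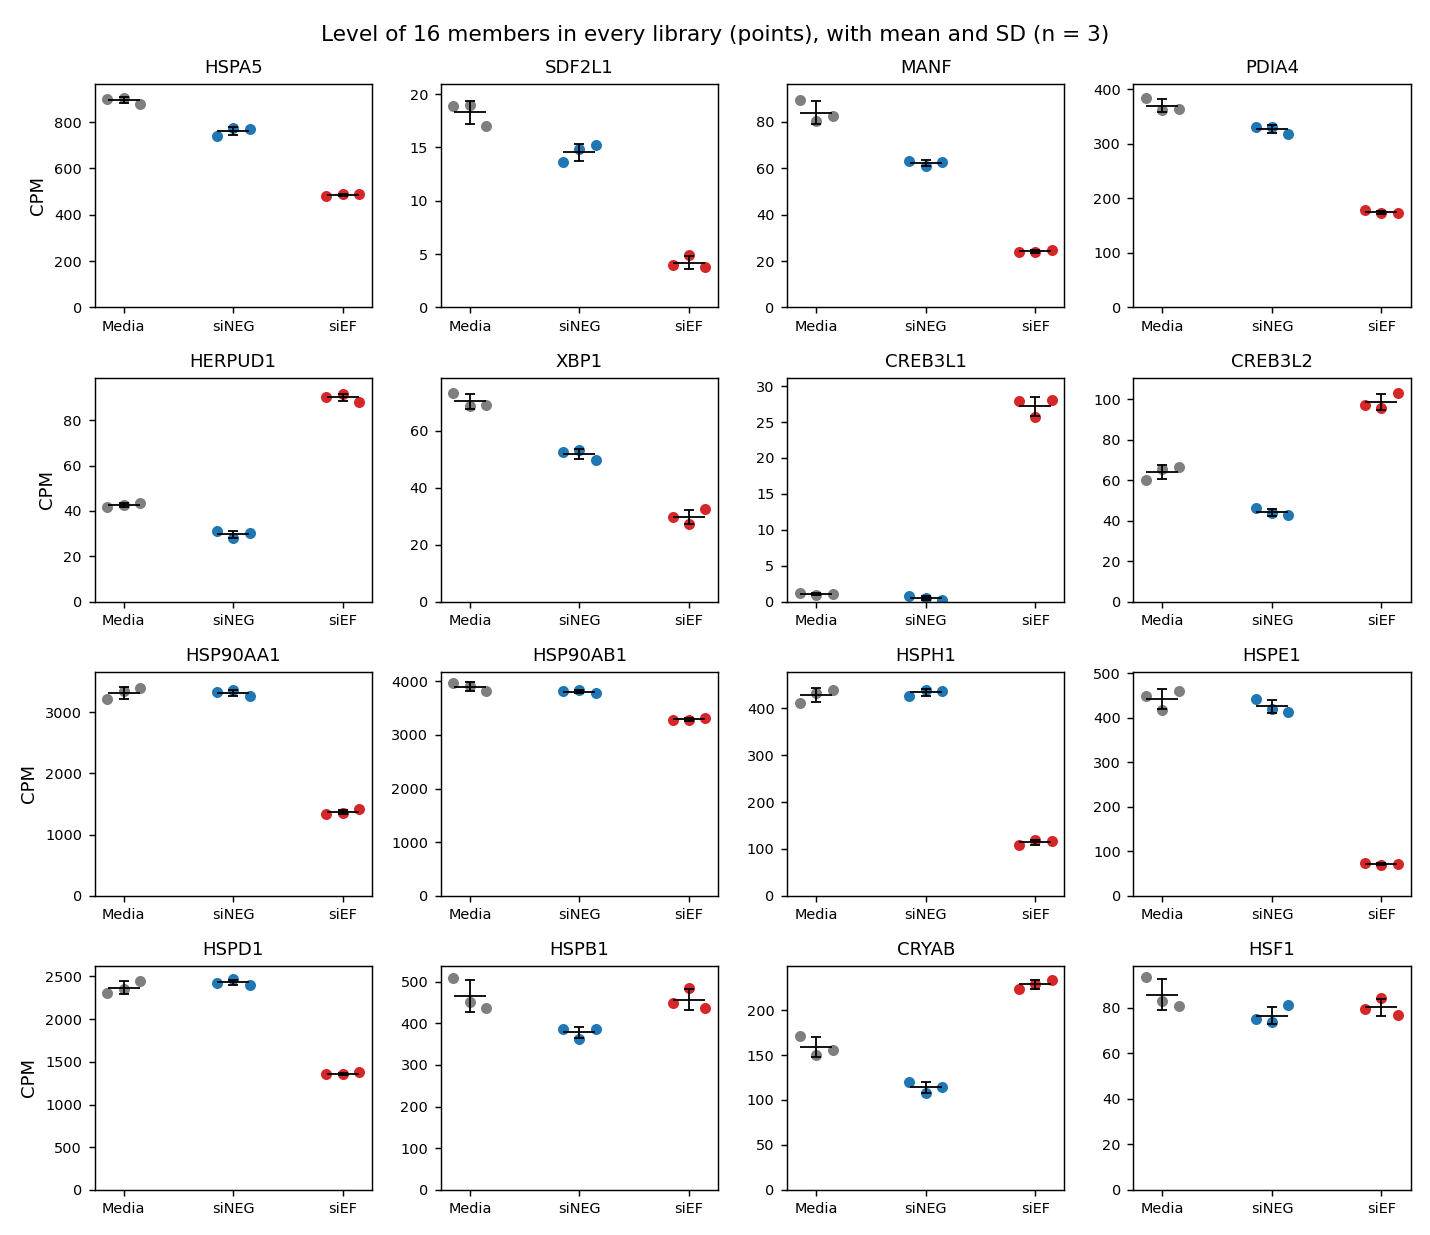
Level in CPM (linear axes from 0) of 16 of the 43 genes in every library of Media, siNEG and siEF. Points are libraries, long bars are means and whiskers are SD (n = 3); HSPE1, HSPH1 and HSP90AA1 overlap between Media and siNEG and are lower in siEF, HSPA5, MANF and XBP1 step down from Media to siNEG to siEF, and HERPUD1, CREB3L1, CREB3L2 and CRYAB are highest in siEF.

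The 3 small heat shock proteins, which hold unfolded proteins without ATP, differed in direction. HSPB1 (HSP27) was at 448, 484 and 437 CPM in the siEF libraries, 387, 362 and 385 CPM in the siNEG libraries and 509, 452 and 436 CPM in the Media libraries. It was higher in siEF than in siNEG (log2 fold change 0.27, SE 0.0578, adjusted P = 0.000467), while siEF and Media overlapped (log2 fold change -0.03, SE 0.0577, adjusted P = 0.655). CRYAB (alpha B-crystallin) was at 224, 229 and 233 CPM in the siEF libraries, 120.2, 108 and 114 CPM in the siNEG libraries and 172, 151 and 156 CPM in the Media libraries. CRYAB differed by 1.00 on the log2 scale (SE 0.0543, adjusted P = 4.77e-11). The siEF libraries were highest and the siNEG libraries lowest, without overlap. Its log2 fold change sat at the cut-off and fell below it in 10 of 17 alternatives, which ranged from 0.95 to 1.09. HSPB8, a partner of BAG3, was at 4.26, 4.85 and 5.86 CPM in the siEF libraries, 11.3, 12.1 and 11.1 CPM in the siNEG libraries and 14.2, 12.1 and 13.3 CPM in the Media libraries. HSPB8 differed by -1.20 on the log2 scale (SE 0.117, adjusted P = 8.9e-08), and every siEF library lay below every control library. HSF1 itself, the factor that drives heat shock genes, was at 79.5, 84.2 and 76.9 CPM in the siEF libraries, 74.97, 73.7 and 81.04 CPM in the siNEG libraries and 93.5, 82.9 and 80.7 CPM in the Media libraries, with all groups overlapping. The fitted value of HSF1 was 0.07 on the log2 scale (SE 0.0624, adjusted P = 0.353). Its mRNA level says nothing of its activity, which is set on the protein.

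The mitochondrial chaperonin pair held the deepest fall of the 43 genes. HSPE1, the lid of the chaperonin, was at 72.8, 69.7 and 71.2 CPM in the siEF libraries, 442, 420.1 and 413 CPM in the siNEG libraries and 449, 418 and 459 CPM in the Media libraries, so that siEF held 16.8% of the siNEG level. HSPE1 differed by -2.58 on the log2 scale (SE 0.0495, adjusted P = 1.91e-16). The siEF libraries stood far below the 6 control libraries, which overlapped. HSPD1, its barrel, was at 1356, 1352 and 1376 CPM in the siEF libraries, 2422, 2466 and 2404 CPM in the siNEG libraries and 2311, 2348 and 2449.7 CPM in the Media libraries, a smaller decrease. HSPD1 differed by -0.84 on the log2 scale (SE 0.0391, adjusted P = 7.29e-12). In counts of HSPE1 for each 100 of HSPD1, the siEF libraries held 5.16 to 5.37, the siNEG libraries 17.04 to 18.3 and the Media libraries 17.8 to 19.4. Exons of HSPE1 overlap the readthrough gene HSPE1-MOB4 on the same strand, which was at 0, 0 and 1.54 CPM in siEF and 1.96, 1.65 and 3.53 CPM in siNEG, so that the division of reads between the rows is uncertain. The sum of both rows gave -2.57 (SE 0.0496, adjusted P = 1.93e-16).

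The genes of this pair lie head to head, with 539 bases between their starts, and their promoters are shown because these neighbours had log2 fold changes as unequal as -2.58 and -0.84. The HSPD1 window (chr2:197499791-197500090, minus strand) has in capitals 2 overlapping matches to the heat shock element, which is GAA, TTC and GAA each parted by 2 bases. The HSPE1 window (chr2:197500129-197500428, plus strand) holds none of the 5 motifs searched, which says only that those letters are not in this window. The HSPD1 matches, 245 and 240 bases before its start, lie between the starts of the pair and just outside the HSPE1 window. Where the windows end thus sets that the element is counted for HSPD1 alone, and on which gene it acts was not tested. The element was found in 3 of the 36 promoters (8.33%, beside 0.309% of all windows), those of HSP90AA1, HSPA8 and HSPD1, and all 3 genes were lower in siEF than in siNEG. Only exact matches counted, and the search says nothing of other forms of the element. HSPA1A, HSPA1B and DNAJB1, which were also lower, had windows without a match, and HSPH1 had no window. Of the 29 other tested genes with the element, 10 were lower, 8 higher and 11 neither, with a median log2 fold change of 0.00. Over all genes tested, 31.7% were lower and 33.6% higher.
HSPD1: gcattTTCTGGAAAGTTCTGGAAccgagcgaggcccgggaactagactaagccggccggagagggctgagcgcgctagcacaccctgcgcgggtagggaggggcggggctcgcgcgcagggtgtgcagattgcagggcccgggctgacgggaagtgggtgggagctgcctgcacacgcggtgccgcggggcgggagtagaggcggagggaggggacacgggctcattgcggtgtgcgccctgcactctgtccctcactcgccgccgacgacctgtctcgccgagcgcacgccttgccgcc
HSPE1: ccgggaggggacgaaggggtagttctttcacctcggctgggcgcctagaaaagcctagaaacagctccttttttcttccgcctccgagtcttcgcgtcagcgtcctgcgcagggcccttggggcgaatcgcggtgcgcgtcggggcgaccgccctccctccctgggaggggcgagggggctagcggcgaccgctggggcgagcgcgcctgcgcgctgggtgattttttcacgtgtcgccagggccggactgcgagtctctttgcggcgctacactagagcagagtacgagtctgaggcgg

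**Figure D3:**
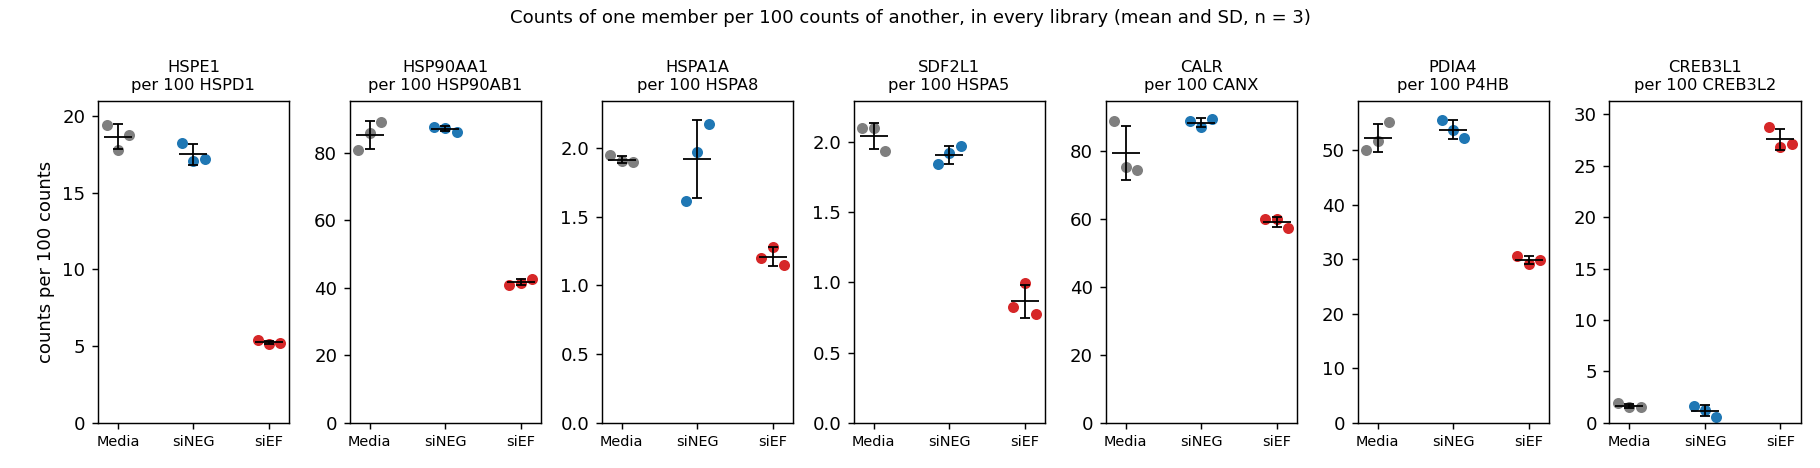
Counts of one gene for each 100 counts of its partner in every library, for 7 pairs (linear axes from 0; points are libraries, bars are means and SD, n = 3). In all 7 pairs the siEF libraries stand apart from the siNEG libraries while siNEG and Media overlap, with HSPE1 per 100 HSPD1 at 5.16 to 5.37 in siEF and 17.0 to 18.3 in siNEG.

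Ratios within a library show unequal change among partners without any scaling between libraries. The pairs were picked with their values known and are given as a description. Counts of HSPE1, HSPD1, HSP90AA1, HSP90AB1, HSPA1A, HSPA8 and HSPA5 were fractional in 8 or 9 libraries. Ratios with these genes thus also depend on how shared reads were divided. In siEF there were 0.773 to 0.998 counts of SDF2L1 for each 100 of HSPA5, against 1.84 to 1.97 in siNEG and 1.94 to 2.097 in Media. CALR stood at 57.3 to 59.97 for each 100 CANX in siEF, 87.02 to 89.3 in siNEG and 74.4 to 88.8 in Media. PDIA4 stood at 29.1 to 30.5 for each 100 P4HB in siEF, 52.2 to 55.5 in siNEG and 50.03 to 55.1 in Media. HSPA1A stood at 1.14 to 1.28 for each 100 HSPA8 in siEF, 1.61 to 2.17 in siNEG and 1.896 to 1.94 in Media.

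The second comparison, siNEG against Media, addresses what the nonspecific siRNA and its transfection did to the same genes. In it, 16 of the 43 were lower in siNEG and 0 higher, beside 5.96% and 3.83% of all genes tested. Called were 0 lower and 0 higher by edgeR, beside 0.267% and 0.162% of all genes, and DESeq2 also called 0. At an unadjusted P under 0.05, 23 were lower and 1 higher. The share of all genes at that threshold was not computed, so these 2 counts are a description only. The siNEG and Media libraries did not overlap for 26 genes that were lower in siNEG and 1, HSPA1B, that was higher, beside 17.3% and 15.5% of all genes. The median log2 fold change was -0.16, beside 0.00 for all genes tested. Of the 29 ER genes 13 were lower, and of the other 14 genes 3 were, shares whose difference was not tested. The ER genes included HSPA5 at -0.23 (SE 0.0393, adjusted P = 0.000589) and MANF at -0.43 (SE 0.0544, adjusted P = 3.83e-05). HERPUD1 stood at -0.52 (SE 0.0564, adjusted P = 8.85e-06) and SEC24D at -0.49 (SE 0.0688, adjusted P = 0.000109). The sensor ERN1 stood at -0.72 (SE 0.0686, adjusted P = 2.2e-06) and its target XBP1 at -0.44 (SE 0.0617, adjusted P = 0.000103). CREB3L2 stood at -0.53 (SE 0.0575, adjusted P = 8.22e-06). The other ER genes among them were HYOU1, DNAJC3, CANX, PDIA4, P4HB and KDELR2, with log2 fold changes from -0.38 to -0.18. Outside the ER, CRYAB at -0.48 (SE 0.0542, adjusted P = 1.2e-05), HSPB1 at -0.30 (SE 0.0577, adjusted P = 0.00161) and BAG3 at -0.21 (SE 0.0481, adjusted P = 0.00715) were lower. Several of the 16 lay close to the threshold: of 17 alternatives, BAG3 missed it in 11 (adjusted P up to 0.0351), PDIA4 in 8 (up to 0.0412) and P4HB in 6 (up to 0.0274), among them each of the 3 fits that left out 1 siNEG library. CANX missed it without siNEG replicate 3 (adjusted P = 0.0125) and HSPB1 without siNEG replicate 2 (adjusted P = 0.0144). HSP90AA1, HSPH1, HSPE1 and HSPD1, which fell in siEF, had log2 fold changes between -0.06 and 0.04 here, with overlapping libraries. CREB3L1 had -0.98 (SE 0.266, adjusted P = 0.017) at counts of 8 to 35 per library, and it was called without the siNEG replicate 1 library (log2 fold change -1.32).

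Against Media, siEF showed 30 genes lower and 5 higher, beside 32.3% and 33.6% of all genes tested, and 13 called lower and 3 called higher, beside 12.5% and 17.4%. This comparison shares the siEF libraries with the first one and the Media libraries with the second, so its values are given side by side and not as independent support. The median was -0.39, beside 0.04 for all genes. In this single fit, a gene's value against Media is its value against siNEG plus that of siNEG against Media. By that sum, genes below both controls had larger differences from Media than from siNEG where siNEG itself lay below Media. They included MANF with -1.79 against -1.36, XBP1 with -1.23 against -0.79, HYOU1 with -1.16 against -0.89 and DNAJC3 with -1.04 against -0.66. By the same sum, of the 5 genes called higher against siNEG, those lower in siNEG in the second comparison had smaller differences from Media. These were HERPUD1 with 1.08 against 1.60, CREB3L2 with 0.63 against 1.16 and CRYAB with 0.52 against 1.00. KDELR3 had 1.10 against 1.09, and CREB3L1, whose siNEG value did not pass against Media, had 4.70 against 5.68. HSPE1 (-2.63), HSPH1 (-1.90) and HSP90AA1 (-1.28) gave nearly the same value with either control. The 8 genes that passed in neither direction against Media were DNAJB9, PDIA5, ERO1B, SEL1L, ATF6, ERN1, HSPB1 and HSF1.

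**Figure D4:**
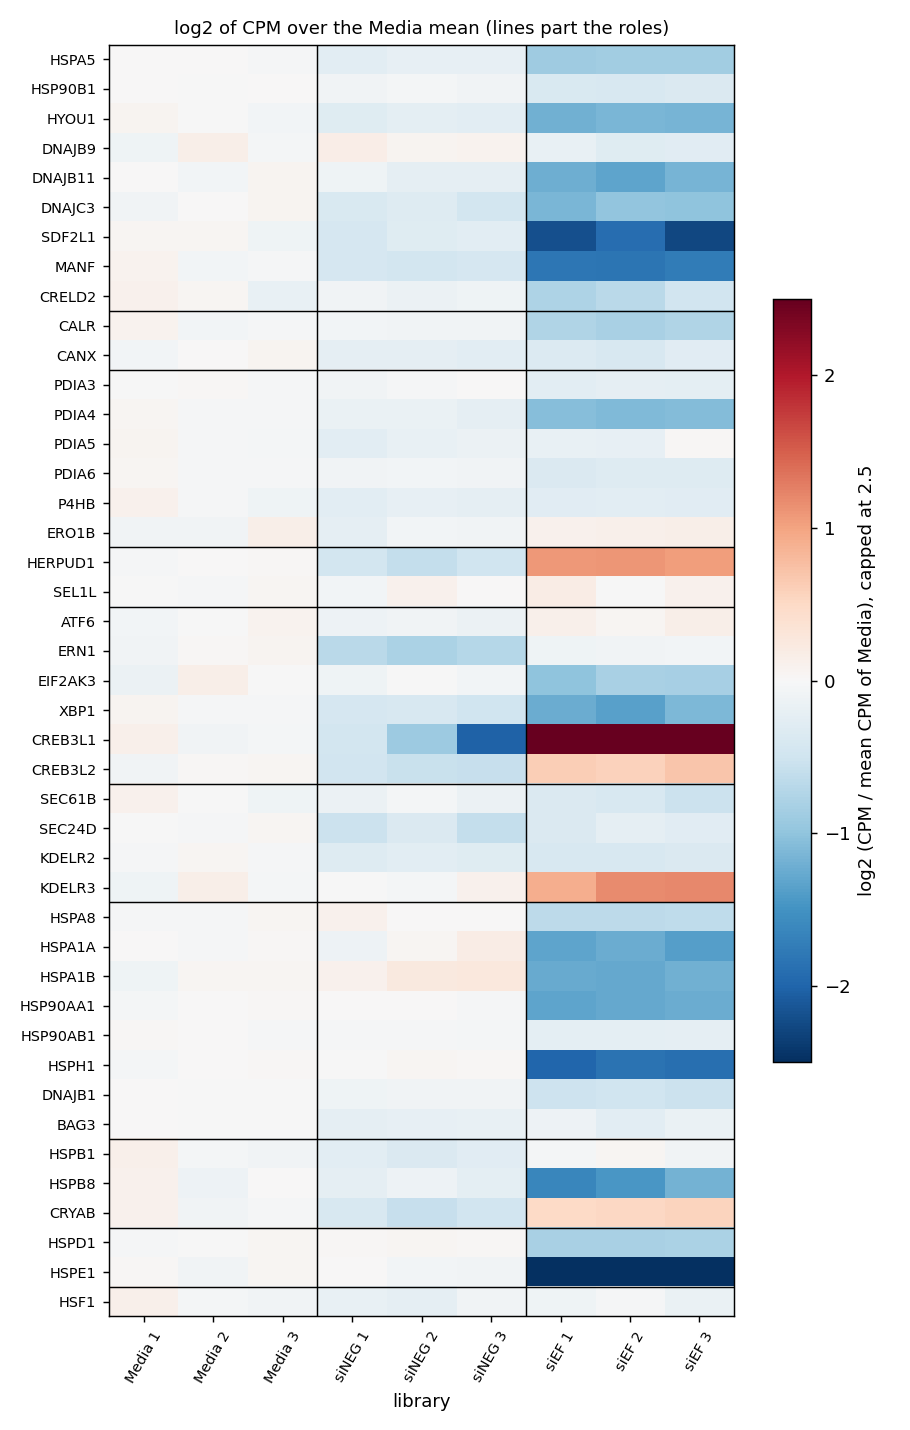
Level of each of the 43 genes in every library as log2 of CPM over the mean CPM of Media (colour, capped at 2.5 in either direction; blue is lower and red is higher), with black lines between roles and groups. The siEF columns are blue for most ER and cytosolic chaperones and red for HERPUD1, CREB3L1, CREB3L2, KDELR3 and CRYAB, and the siNEG columns are pale, with faint blue in ER rows and near white in most cytosolic rows, except for CREB3L1, which is dark blue in siNEG replicate 3.

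Other genes of the same pathways, listed by function, were read in the same fit. Of 69 other ER folding and secretion genes, 68 were tested, and 23 were lower and 23 higher in siEF than in siNEG, 9 and 3 of them called, with a median log2 fold change of -0.03. Over all genes tested, 31.7% were lower and 33.6% higher, and 11.7% and 17.1% were called. Among called genes, the 3 that rose most were CDNF, a relative of MANF at 3.19 (SE 0.538, adjusted P = 5.05e-05), the prolyl isomerase FKBP9 at 1.97 (SE 0.0398, adjusted P = 2.99e-16) and the sulfhydryl oxidase QSOX1 at 1.13 (SE 0.0836, adjusted P = 2.63e-09). Those that fell most were TMX1, a membrane-bound disulfide enzyme at -1.65 (SE 0.0585, adjusted P = 2.21e-13), FKBP14, a prolyl isomerase at -1.59 (SE 0.0753, adjusted P = 8.86e-12), and SEC23A, a coat protein of ER export vesicles at -1.48 (SE 0.0507, adjusted P = 1.53e-13). CDNF stood at 1.12, 1.03 and 1.61 CPM in siEF and 0.0948, 0.177 and 0.128 CPM in siNEG, near the limit of detection in siNEG.

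Of 52 other cytosolic and mitochondrial chaperones, 48 were tested (HSPA14, which has 2 rows, was left out), and 33 were lower and 8 higher, 12 and 3 of them called, with a median of -0.54. The shares over all genes tested were 31.7% lower and 33.6% higher, and 11.7% and 17.1% called. The largest falls were CHORDC1, an HSP90 cochaperone at -2.57 (SE 0.0914, adjusted P = 2.28e-13), HSPA4L, a relative of HSPH1 at -2.23 (SE 0.0771, adjusted P = 1.65e-13), and CCT4, a subunit of the cytosolic chaperonin at -1.58 (SE 0.0425, adjusted P = 7.86e-15). The largest rises were HSPA2, an HSP70 at 2.44 (SE 0.0613, adjusted P = 3.78e-15), DNAJB2, a cochaperone of HSP70 at 1.62 (SE 0.0695, adjusted P = 2.51e-12), and the heat shock factor HSF4 at 1.41 (SE 0.257, adjusted P = 0.000112). CHORDC1 stood at 27.2, 21.5 and 27.5 CPM in siEF and 160.0, 155 and 142 CPM in siNEG.

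The output genes of EIF2AK3 and of the factor DDIT3 (CHOP) were 2 lower and 3 higher of 6, with 2 called in each direction. The shares over all genes tested were 31.7% lower and 33.6% higher, and 11.7% and 17.1% called. PPP1R15A, which reverses the translation block set by EIF2AK3, was at 71.2, 64.9 and 72.3 CPM in siEF and 21.5, 23.9 and 22.95 CPM in siNEG (log2 fold change 1.61, SE 0.0718, adjusted P = 3.96e-12), and ATF3 rose as well (log2 fold change 1.32, SE 0.134, adjusted P = 1.58e-07). TRIB3 (log2 fold change -1.14, SE 0.0816, adjusted P = 1.76e-09) and CHAC1 (log2 fold change -1.09, SE 0.156, adjusted P = 8.77e-06) fell. DDIT3 had 0.42 (SE 0.0934, adjusted P = 0.000664), and ATF4, which is mainly set at translation, had -0.13 (SE 0.0429, adjusted P = 0.0144). In siNEG against Media, 4 of the 6 were lower and 0 higher, beside 5.96% and 3.83% of all genes tested. Of the 6, 1 was called lower, beside 0.267% of all genes, and the lowest log2 fold change was -1.11. The control siRNA thus also went with lower levels of output genes, by more than the fold cut-off for 1 of them. Against Media, siEF had 3 lower and 2 higher, beside 32.3% and 33.6% of all genes, with the lowest log2 fold change at -2.20. The median log2 fold change of the 6 was -0.23 against Media and 0.15 against siNEG.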

How the data were processed

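RNA-seq libraries of TC32 cells (siEF, siNEG and Media, 3 each) were grouped by their labels. According to the methods, the authors mapped reads to hg38 with STAR and quantified them with RSEM, and the submitters' processing notes also name FastQC, cutadapt 2.10 and DESeq2 1.32.0. The deposited values are expected counts per gene, neither scaled nor pooled. The annotation release and strand setting were not given in the sources used here, and the labels name a small RNA library kit beside polyA RNA.

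After rounding, filterByExpr kept 16093 genes. TMM scaling and the quasi-likelihood test of edgeR 4.0.16 (R 4.3.3) followed, with 1 mean per group over 9 libraries and Benjamini-Hochberg adjustment over all genes. CPM used TMM-scaled library sizes. SE is the size of the log2 fold change over the square root of F. Of the 43 genes, 15 had fractional counts in some library, which mark reads shared with other genes. They were HSPA5, HSP90B1, PDIA3, DNAJB11, ATF6, KDELR2, HSPA8, HSPA1A, HSPA1B, HSP90AA1, HSP90AB1, HSPD1, HSPE1, HSPB1 and DNAJB1. Alternatives were DESeq2 1.42.0, other scalings and filters, a replicate block and leaving out each library. The procedure was also run on simulated data, and the outcome of that run is not given here. Positions and transcript lengths came from GENCODE release 44, which held 60306 of the 60603 identifiers, and promoters from RefSeq. P values measure the spread among libraries labelled biological replicates, and every pair of libraries in a group differed by more than counting noise (chi-square per degree of freedom 3.57 to 23.2).

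The 43 genes, the lists and the motifs were chosen with earlier results of these data known. Library values were named for genes called and for the most abundant gene of each role, with further genes added after their values were seen, and, from each list, for the 3 called genes that rose most and the 3 that fell most.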

Additional observations from a re-analysis of the deposited data

How the results depend on the processing

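In siEF against siNEG, 722 of 733 values of the 43 genes under 17 or 18 alternatives each kept their direction and their side of the adjusted P threshold, as did 717 of 733 in siEF against Media and 684 of 733 in siNEG against Media. The counts called in siEF against siNEG were 8 or 9 lower and 4 or 5 higher in every scaling, filter, library set and DESeq2, and 7 lower and 3 higher when the fold cut-off itself was tested, where DNAJB11, HSPB8, KDELR3 and CRYAB no longer passed (adjusted P 0.368, 0.0663, 0.325 and 0.741). A minimum of 10 counts per library removed CREB3L1, which then has no value. The test against the cut-off left 1 of 3 higher calls against Media. Without siNEG replicate 1, 1 gene (CREB3L1) was called lower in siNEG against Media, where leaving out libraries otherwise gave 0, and the count at adjusted P alone went from 12 to 17 over all alternatives, beside 16.

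The values that changed sign were all small and past no threshold. HSP90AA1 in siNEG against Media gave 0.0020 (RLE scaling), 0.0124 (upper quartile), 0.0056 (no filter), 0.0113 (a minimum of 10 counts per library), 0.0021 (fit of 6 libraries), 0.0015 (DESeq2) and -0.0242 to 0.0144 without one library. In the same comparison without one library, KDELR3 gave -0.0374 to 0.0929, HSPH1 -0.0064 to 0.0485, EIF2AK3 -0.1379 to 0.0086, PDIA3 -0.0599 to 3e-04, SEL1L -0.0257 to 0.0755 and HSPA1A -0.0357 to 0.1367. In siEF against siNEG, P4HB gave 0.0358 under upper quartile scaling, BAG3 -0.0201 without a filter and -0.0178 to 0.0494 without one library, and PDIA5 -0.0066 to 0.1143 without one library. In siEF against Media, upper quartile scaling gave ERN1 0.0120, HSPB1 0.0702 and HSF1 0.0023, and HSPB1 gave 0.0054 with a minimum of 10 counts per library and -0.0837 to 0.0300 without one library. The cause was not tested.

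The replicate numbers did not pair the samples, since correlations of same-numbered deviations lay between -0.0875 and 0.0482. With a replicate block, 15 genes in place of 16 were lower in siNEG against Media by adjusted P, and all other counts of the 43 were as without it. HSPA1A and HSPA1B summed, and HSPE1 summed with its readthrough row, were alternatives chosen after seeing the data and kept the calls. Depth limits CREB3L1 in the controls, SDF2L1 and HSPB8 most.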
